A study of Mus musculus with 14 samples.

Results

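Unstimulated group 2 innate lymphoid cells (ILC2s) from mouse lung were examined for the genes they express at baseline. All 4 libraries labelled as unstimulated were taken, out of 14 in the series, and the 53278 genes of the expression table were ranked by their mean level over these 4 libraries. The series studied the transcriptional regulator Blimp-1 in ILC2s, and its other libraries came from ILC2s given IL-33, or IL-33 with IL-25, and are not used here. The unstimulated cells came from the lungs of female B6 mice and were sorted as live, lineage-, CD90.2+ and CD3- cells, so that neither GATA3 nor the IL-33 receptor served in the gate. By the series' design text, about 15000 sorted cells per sample were kept in complete RPMI for 24 h with no IL-33, and RNA was amplified with the SMART-seq v4 kit. The study elsewhere calls the unstimulated cells ex vivo or naïve, so that the levels given here may be those of cultured or of freshly sorted cells. The labels describe individual mice, whereas a figure legend of the study describes sorts from pooled animals. The methods do not settle whether IL-2, which the study's general description of ILC2 culture includes, was present.

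ILC2s are tissue-resident lymphocytes without rearranged antigen receptors. They are known to sense epithelial alarmins such as IL-33, IL-25 and TSLP, as well as neuropeptides and lipid mediators, and to answer by secreting IL-5 and IL-13, cytokines of type 2 immunity. GATA3 and RORα are known to direct their development, and IL-7 and IL-2 to sustain them.

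Depth ranged from 21939818 to 32791051 counts per library. Levels are given as TPM, which are counts per gene length scaled to the same total in each library. The length is the value deposited for each gene and can differ from that of the transcripts made in these cells. Ranks and orders between genes therefore depend on the deposited lengths. A value of 3 counts was taken as the floor, and a gene is said to be at the floor where no library had more than 3 counts. With 1 group there is no comparison between conditions and no test of one, and errors are the SD over the 4 libraries.

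The 4 libraries resembled each other. On log2(TPM + 1), Pearson's r across the 9024 genes with a mean of 10 TPM or more was between 0.982 and 0.991 for the 6 pairs, as a description across genes. The chi-square per gene of their counts was between 10.7 and 30.7, so that no pair agreed within sampling noise as a library deposited again would. Replicate 1 was the lowest library for 4701 of these 9024 genes and replicate 4 the highest for 4059, with median log2 differences from the other 3 libraries of -0.08 and 0.05.

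Replicate 4 stood apart in Xist, the noncoding RNA that coats the inactive X chromosome in female cells. Xist was at 58.0, 146, 98.9 and 0.0062 TPM in replicates 1 to 4, which are 9109, 26134, 11888 and 1 counts. Replicate 4 thus went against a female label by this gene, yet the Y-linked genes Ddx3y, Eif2s3y, Kdm5d and Uty together held 16, 12, 13 and 18 counts and did not separate it from the other libraries. Of 6 X-linked genes chosen after values were seen, because they are known to escape X inactivation, Kdm6a, Eif2s3x and Pbdc1 were at 69%, 67.5% and 65.7% of the mean of the other 3 libraries in replicate 4, and Kdm5c at 82.4%. Ddx3x and Utp14a were at 101% and 103%. The median log2 difference of replicate 4 from the other libraries was 0.05 over 240 X-linked and 0.06 over 7968 autosomal protein-coding genes at 10 TPM or more.

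The cell type label was checked against its markers. Il1rl1, which encodes the IL-33 receptor ST2 in its membrane and soluble forms, was at 1162, 1210, 1209 and 1323 TPM in replicates 1 to 4, with a mean of 1226 ± 68.7 (SD, n = 4). Gata3 was at 851, 877, 879 and 931 TPM (885 ± 33.5). Both were close to even between libraries, and they ranked 74 and 136 among all genes. Il7r, the IL-7 receptor α chain, was at 87.5, 106, 96.5 and 98.4 TPM (97.1 ± 7.55), and Rora, which encodes RORα, at 86.9, 101, 88.9 and 99.3 TPM (94.0 ± 7.15). These levels lay well below Gata3, and Il7r and Rora did not differ beyond their spread, since their ranges overlapped and the order held in 3 of 4 libraries. All 4 markers were lowest in replicate 1, as were 4701 of all 9024 genes at 10 TPM or more. Thy1, which encodes the sorted antigen CD90, was at 833, 921, 917 and 774 TPM. In GRCm38, Il1rl1 lies on chromosome 1 from 40429570 to 40465415, Gata3 on chromosome 2 from 9857078 to 9890034, Il7r on chromosome 15 from 9505788 to 9530176 and Rora on chromosome 9 from 68653786 to 69388246.

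The label of unstimulated cells says nothing of division, and the cell cycle genes were high. All 24 genes of a cell cycle list were at 10 TPM or more and 18 at 100 TPM or more, with a median of 246 TPM. Pcna, the sliding clamp of DNA replication, was at 845, 834, 821 and 831 TPM and was even between libraries (833 ± 10). Rrm2, a subunit of ribonucleotide reductase, was at 690 ± 31.9 TPM and Top2a, which untangles DNA before mitosis, at 564 ± 28.4 TPM. The replicative helicase subunits Mcm3, Mcm6 and Mcm5 lay between 378 and 391 TPM, and the mitotic cyclin Ccnb2 at 360 ± 12.8 TPM. Mki67, which marks cycling cells, was less even, at 294, 424, 357 and 491 TPM, with the lowest value in replicate 1 and the highest in replicate 4. Of the 24 genes, 14 were highest in replicate 4, as were 4059 of all 9024 genes at 10 TPM or more. In the list of quiescence and survival genes, all 16 were also at 1 TPM or more, led by Txnip, a redox regulator, at 490 ± 29.0 TPM, the survival factor Mcl1 at 338 ± 6.28 TPM and the cell cycle inhibitor Cdkn1a at 293 ± 28.9 TPM. Bulk RNA cannot tell fewer cells of a type from less RNA per cell, so these levels give no share of cycling cells.

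The most abundant transcripts were those of the cytoskeleton, mitochondria, protein synthesis and class I antigen presentation. A mean of 1 TPM or more was reached by 14513 genes, of which 13196 were at 1 TPM in every library. The counts were 9024 genes at 10 TPM, 1924 at 100 TPM, 106 at 1000 TPM and 4 at 10000 TPM. Those 4 were Tmsb4x, which encodes the actin-binding thymosin β4, at 12892 ± 466 TPM, Actb at 12655 ± 181 TPM, mt-Co1 at 12125 ± 799 TPM and B2m, the light chain of class I molecules, at 10474 ± 1740 TPM. Eef1a1, mt-Nd1, Rplp1, mt-Cytb, Gm23935 and Lgals1 completed the highest 10. The highest 10 genes held 9.05% ± 0.595 of all TPM, the highest 100 held 26.5% ± 1.2 and the highest 1000 held 59.0% ± 1.36.

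Outside the mitochondrial and ribosomal protein genes, the next ranks went to Ptma at 4424 ± 151 TPM, the surface antigen gene Ly6a (Sca-1) at 3730 ± 660 TPM, the elongation factor Eef2 at 3723 ± 59.4 TPM and the ferritin chain Fth1 at 3201 ± 522 TPM. Sh3bgrl3 came after Fth1, at 3139 ± 142 TPM. The tetraspanin Cd53, the class I heavy chains H2-K1 and H2-D1, Tagln2, Tubb5 and the chaperone Hsp90ab1 followed between 2716 and 3047 TPM. Not every high value is a messenger RNA. The short locus Gm23935 was at 7023, 11819, 3723 and 1288 TPM from 656 to 6721 counts, because a short length turns few reads into a high TPM. CT010467.1 was at 4078 ± 917 TPM and shares 35.2% of its 75-base stretches with other annotated genes. Rn7sk shares 65.0% of its stretches, and Gm9794, at 3261 ± 144 TPM, shares 78.5%, most of them with Rpl23, so their values are uncertain. mt-Co1 and Eef1a1 share 39.8% and 26.6%, in each case mainly with an annotated gene without a functional name. Protein-coding genes held 90% ± 0.602 of all TPM and processed pseudogenes 5.12% ± 0.0855.

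**Figure D1:**
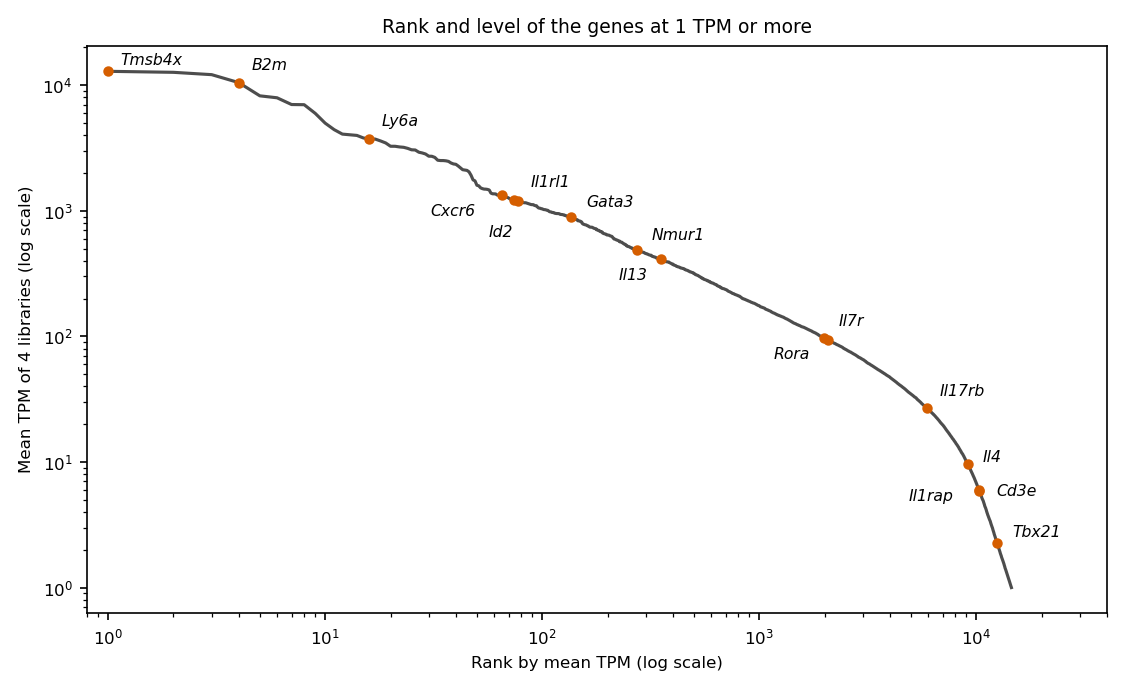
Mean TPM of the 4 unstimulated libraries (vertical, log scale) against rank (horizontal, log scale) for the 14513 genes with a mean of 1 TPM or more, with named genes as orange points. Il1rl1, Id2 and Cxcr6 lie among the highest 100 genes, Il7r and Rora at ranks 1994 and 2065, and Il4, Il1rap, Cd3e and Tbx21 on the steep end below 20 TPM.

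Mitochondrially encoded genes held 4.79%, 4.38%, 4.11% and 3.99% of TPM in replicates 1 to 4 and cytosolic ribosomal protein genes 8.36%, 7.91%, 8.17% and 7.63%. Both shares were highest in replicate 1 and lowest in replicate 4. Among the highest 100 genes were 9 mitochondrially encoded and 23 ribosomal protein genes. Of 84 protein-coding ribosomal protein genes, 78 were at 100 TPM or more. Ribosomal protein mRNAs are known for a pyrimidine tract at their 5′ end, through which their translation is controlled. Start windows were read from RefSeq promoter sequences of GRCm38.p6 for 64 of the 84 genes. A run of 7 or more C or T bases that came within 2 bases of the annotated start was found in 25 of the 64 windows, or 39.1%, against 11.4% of 16367 protein-coding genes. It was found in 18.7% of 75 windows among the highest 100 other protein-coding genes and in 10.6% of those under 1 TPM. Windows of 30 bases, 20 before the start and 10 from it on, are shown for 4 ribosomal protein genes with the run, for the elongation factor Eef1a1 and for Rplp0, which has none, with the run in capitals.

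Rpl19: gggcttgggCTCTCCCCTTCgcagataatg
Rps9: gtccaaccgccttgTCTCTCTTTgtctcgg
Rps21: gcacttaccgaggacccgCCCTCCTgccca
Rps6: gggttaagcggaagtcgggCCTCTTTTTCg
Eef1a1: cgtgtgctggctccgCCCTCTTCCCgaggg
Rplp0: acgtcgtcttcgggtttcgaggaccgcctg

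The windows lie at chr11:98026904-98026933 (+), chr7:3704021-3704050 (+), chr2:180257359-180257388 (+), chr4:86857358-86857387 (-), chr9:78481715-78481744 (-) and chr5:115559447-115559476 (+), in the order shown. Their genes were at 1580, 1464, 1098, 1017, 8224 and 3597 TPM, so that the gene without the run was above every ribosomal protein gene shown with it. The match is a description of annotated starts, which can differ from the starts used in these cells.

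Transcription factors of ILC2s were all present. Each of the 37 genes of the list was at 1 TPM or more, 33 were at 10 TPM or more and 10 at 100 TPM or more, with a median of 49.5 TPM. Id2, which restrains E proteins in all innate lymphoid cells, was highest at 1164, 1180, 1145 and 1289 TPM, above Gata3 in every library with no overlap. Klf6 (307 ± 12.1 TPM) and Ets1 (299 ± 19.6 TPM) followed and did not differ beyond their spread. Ikzf1, which encodes Ikaros, was at 239 ± 10.2 TPM and the NF-κB subunit gene Nfkb1 at 219 ± 11.3 TPM. Hlf, a PAR-family factor best known from blood stem cells, was at 204, 201, 203 and 200 TPM and was thus nearly identical between libraries. Stat3 was at 121 ± 9.24 TPM. Bcl11b, Tcf7, Nfil3, Tox and Prdm1, which encodes Blimp-1, fell outside the naming rule and were chosen after their values were seen, as genes known from ILC2 development or from the study's subject. Prdm1 was at 52.4, 44.1, 40.6 and 61.0 TPM, Bcl11b at 97.0 ± 4.82 TPM, Nfil3 at 32.9 ± 3.47 TPM, Tcf7 at 20.6 ± 3.70 TPM and Tox at 17.6 ± 1.31 TPM. Within the list, 19 genes were highest in replicate 4 and 15 lowest in replicate 1, shares near or below those of replicate 4 (4059) and replicate 1 (4701) among all 9024 genes at 10 TPM or more.

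Factors of type 1 innate lymphoid cells and NK cells were low. Tbx21, which encodes the type 1 factor T-bet, was at 2.57, 2.78, 1.98 and 1.66 TPM. Eomes and Zfp683 were below 1 TPM, at 0.353 ± 0.284 and 0.719 ± 0.302 TPM. Gata3 was above each of these 3 factors in every library, with no overlap.

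**Figure D2:**
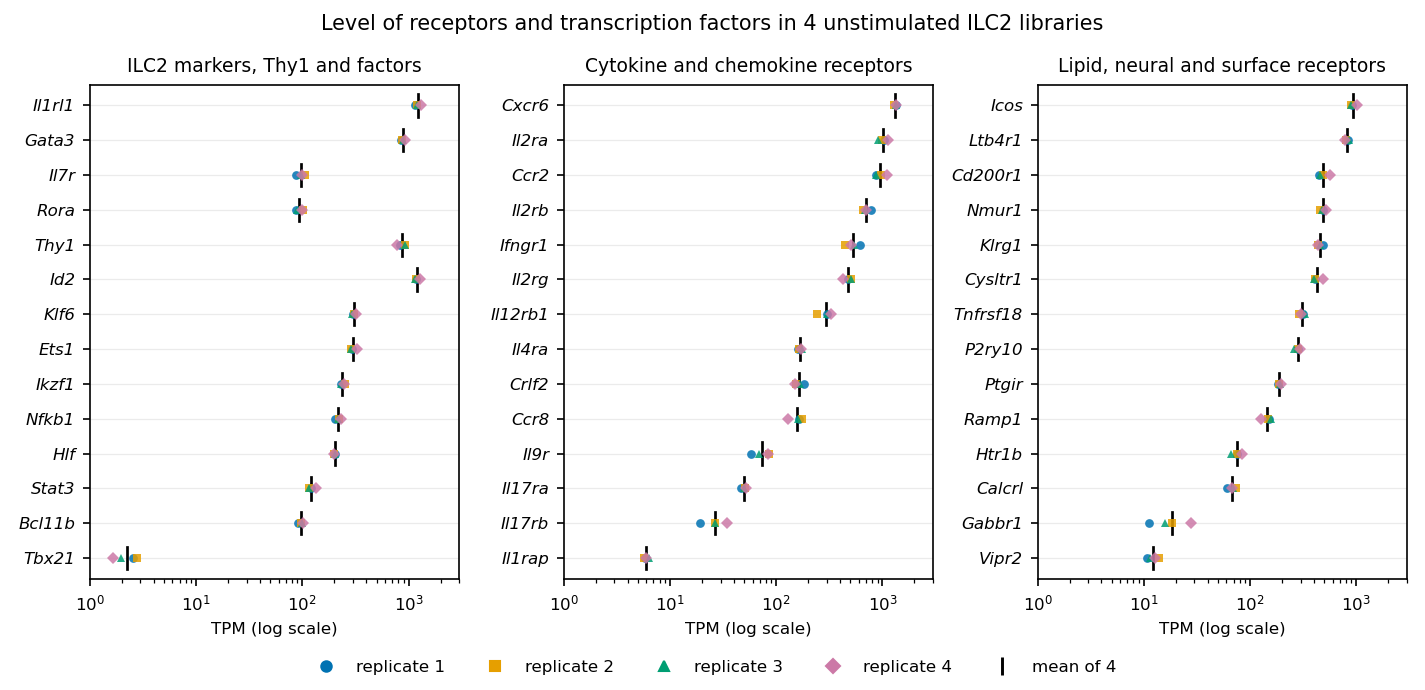
TPM (log scale) of ILC2 markers, transcription factors and receptors, with 1 symbol for each of the 4 libraries and a black bar at their mean. The spread within a gene is small beside the distance between genes, and the widest ranges are those of Gabbr1 and Il17rb, both lowest in replicate 1 and highest in replicate 4.

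The alarmin receptors differed widely in level. Next to Il1rl1 at 1226 TPM, Crlf2, the TSLP receptor chain, was at 182, 153, 169 and 150 TPM (164 ± 14.7). Il17ra was at 50 ± 2.23 TPM and Il17rb, its partner in the IL-25 receptor, at 19.2, 26.8, 26.7 and 34.3 TPM (26.8 ± 6.20), with the lowest value in replicate 1 and the highest in replicate 4. Il1rap, the co-receptor that ST2 needs for signalling, was lowest at 5.96 ± 0.287 TPM, from 482 to 640 counts per library. All neighbours in this order kept it in 4 of 4 libraries without overlap.

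Receptors that use the common γ chain were led by the IL-2 receptor. Il2ra, its high-affinity chain, was at 1045, 990, 917 and 1134 TPM, Il2rb at 789, 653, 681 and 701 TPM and Il2rg, the common γ chain, at 475, 502, 504 and 428 TPM. The 3 chains kept this order in every library without overlap. Of the exon bases of Il2rg, 30.5% lie under Gm20489 or other genes, so that its value may be split. Il4ra was at 168 ± 6.25 TPM and Il9r at 58.0, 85.6, 69.2 and 83.9 TPM (74.2 ± 13.0), while Il21r and Il15ra were at 9.18 ± 0.974 and 7.53 ± 1.43 TPM and did not differ beyond their spread. All 8 genes of the list were at 1 TPM or more.

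Of 36 other cytokine receptors, 28 were at 1 TPM or more and 6 at 100 TPM or more. Ifngr1, the ligand-binding chain of the IFN-γ receptor, was at 621, 445, 537 and 504 TPM and its partner Ifngr2 at 57.4 ± 4.65 TPM. Il12rb1, shared by the IL-12 and IL-23 receptors, was at 293 ± 35.8 TPM, against 4.15 ± 1.10 TPM for the IL-23 receptor chain Il23r. Tgfbr2 was at 212 ± 8.69 TPM and Il27ra at 152 ± 7.01 TPM. Kit, the stem cell factor receptor, was at 117, 118, 140 and 119 TPM, with replicate 3 above the other libraries. Il18rap was at 105 ± 9.16 TPM and Il10ra at 73.4 ± 7.32 TPM. Il5ra, the receptor of the cells' own main cytokine, and Il22ra1 had 0 counts in all 4 libraries, where 3 counts of Il5ra would be 0.0841 to 0.125 TPM.

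Among 21 members of the TNF receptor superfamily, 17 were at 1 TPM or more. Tnfrsf18, which encodes GITR, was at 307 ± 16.8 TPM, although 27.2% of its exon bases lie antisense to Gm16008, and strandedness is not stated. Tnfrsf1b was at 184 ± 11.6 TPM and Tnfrsf25, which encodes the TL1A receptor DR3, at 110 ± 13.7 TPM. The costimulatory receptor Tnfrsf9 was uneven, at 106, 48.9, 98.1 and 82.1 TPM with the lowest value in replicate 2. Tnfrsf17, the plasma cell receptor, had 0 counts.

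Chemokine receptors were dominated by Cxcr6 and Ccr2. Cxcr6, the CXCL16 receptor of many tissue lymphocytes, was at 1341, 1274, 1336 and 1344 TPM and ranked 65 among all genes. Ccr2, known for egress and recruitment along CCL2, was at 876, 962, 867 and 1100 TPM, and Ccr8 at 157 ± 19.7 TPM. Ccr4 was at 49.4, 55.4, 62.6 and 43.5 TPM. Xcr1, Cxcr4 and Ccr9 lay between 15.7 and 20.5 TPM, and 8 of the 22 genes were below 1 TPM.

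Neuropeptide and neurotransmitter receptors were few but included a high one. Nmur1, the receptor of neuromedin U that is characteristic of ILC2s, was at 491, 460, 472 and 517 TPM (485 ± 24.8). Ramp1 (145 ± 13.7 TPM) and Calcrl (67.5 ± 5.39 TPM), which together form the receptor of the neuropeptide CGRP, were both present, as was the serotonin receptor Htr1b at 75.6 ± 7.43 TPM. Gabbr1 was at 11.1, 18.3, 15.9 and 27.9 TPM and the VIP receptor Vipr2 at 12.2 ± 1.36 TPM. Of the 28 genes, 17 were below 1 TPM and 8 at the floor, among them Nmur2, Tacr1, Tacr2 and Adrb3.

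Lipid and nucleotide receptors were more broadly present, with 32 of 38 at 1 TPM or more and 6 at 100 TPM or more. Ltb4r1, the leukotriene B4 receptor, was at 839, 802, 847 and 781 TPM (817 ± 31.2). Cysltr1, the cysteinyl leukotriene receptor, was at 406, 412, 402 and 489 TPM, with replicate 4 above the rest. P2ry10 was at 280 ± 15.5 TPM, the prostacyclin receptor Ptgir at 189 ± 4.98 TPM, Gpr171 at 179 ± 16.5 TPM and S1pr4 at 118 ± 4.2 TPM. Cysltr2 (77.4 ± 11.3 TPM) and the short-chain fatty acid receptor Ffar2 (75.5 ± 18.9 TPM) did not differ beyond their spread. Ptgdr, which encodes the prostaglandin D2 receptor DP1, had 0 counts.

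Of 24 checkpoint and costimulatory receptors, 19 were at 1 TPM or more. Icos was highest at 920, 893, 889 and 1010 TPM, and its ligand gene Icosl was present in the same libraries at 32.4 ± 4.95 TPM. The inhibitory receptor Cd200r1 was at 488 ± 50.6 TPM and Klrg1 at 481, 432, 458 and 433 TPM, and this order held in 3 of 4 libraries. Cd226 was at 142 ± 13.5 TPM and Pdcd1, which encodes PD-1, at 70.0 ± 3.55 TPM. Havcr1, which encodes TIM-1, had 0 counts.

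Adhesion and surface antigen genes were high, with 16 of 33 at 100 TPM or more. Besides Ly6a and Cd53, Ly6e was at 2097 ± 110 TPM, the integrin Itgb7 at 1264 ± 83.2 TPM and Cd52 at 888 ± 76.5 TPM. Selplg, Itgb2 and Spn, which serve rolling and adhesion of leukocytes, lay between 527 and 548 TPM. The ranges of neighbours among these 3 overlapped. Ly6a was at 4473, 2910, 3567 and 3971 TPM, highest in replicate 1 and lowest in replicate 2.

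The type 2 cytokines were present without IL-33, and they differed in evenness. Il5, the eosinophil growth factor, was at 1303, 1034, 967 and 1593 TPM (1224 ± 286) and ranked 75 among all genes. Il13, which drives mucus production, was at 429, 272, 264 and 679 TPM (411 ± 194). Replicates 1 and 4 lay above replicates 2 and 3 for both genes, and the highest library was 1.65 and 2.57 times the lowest. Il4 was much lower and more even, at 8.28, 10.9, 9.36 and 9.85 TPM. Il9 was at the floor, with 2 counts in replicate 1 and 0 in the others, where 3 counts would be 0.561 to 0.835 TPM. Of the exon bases of Il5, 27.1% lie antisense to Gm12214. Il5 lies on chromosome 11 from 53720794 to 53725106 and Il13 from 53631324 to 53634702.

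Areg, which encodes the repair factor amphiregulin, was at 176, 108, 107 and 189 TPM. It had the library order of Il5 and Il13, with replicate 4 highest, then 1, 2 and 3. Csf2, which encodes GM-CSF, did not share it, at 133, 143, 147 and 166 TPM. Among 52 other cytokines and growth factors, 35 were at 1 TPM or more and 7 at 100 TPM or more. Mif, which shares 28.2% of its stretches with other genes, was at 565 ± 26.5 TPM, Tgfb1 at 308 ± 17.1 TPM, Tnfsf14 at 213 ± 11.3 TPM, Ltb at 158 ± 31.9 TPM and Metrnl at 152 ± 19.5 TPM. Il3, Il12a and Il12b had 0 counts in all libraries, and Il21 and Il31 were at the floor. Il22 was at 0.309, 1.26, 0.537 and 5.24 TPM from 3, 14, 4 and 52 counts, and its mean of 1.84 TPM is 0.703 TPM without replicate 4.

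Among enzymes of lipid mediators and amino acids, Alox5, which starts leukotriene synthesis, was at 333, 391, 350 and 331 TPM and Lta4h, which makes leukotriene B4, at 119 ± 2.55 TPM. The 5-lipoxygenase partner Alox5ap was at 11.4 ± 1.73 TPM, far below Alox5. Odc1, which makes putrescine from ornithine, was at 271 ± 15.3 TPM, with 16.6% of its stretches shared. Hpgds, the prostaglandin D2 synthase, and Tph1, the first enzyme of serotonin synthesis, were at 12.7 ± 2.32 and 12.4 ± 1.99 TPM. Ptgs2 was at 18.2, 3.68, 13.0 and 9.36 TPM, with the lowest value in replicate 2. Nos2, Ido1 and Alox15 were at the floor.

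Granule genes were led by the proteoglycan Srgn at 1160 ± 104 TPM, with the cathepsins Ctsd (586 ± 38.0 TPM), Ctsb (151 ± 11.6 TPM) and Ctss (124 ± 30.0 TPM). Ctsd shares 34.4% of its exon bases with Gm49369. Gzmb, which encodes granzyme B, was at 232, 110, 134 and 159 TPM, and perforin (Prf1) at 2.12 ± 0.545 TPM. Gzmc was at 8.56, 3.36, 45.5 and 6.88 TPM, so replicate 3 alone set its mean of 16.1 TPM, which is 6.27 TPM without it. Of the 13 genes of the list at 1 TPM or more, 9 were lowest in replicate 2, against 1463 of all 9024 genes at 10 TPM or more. The list summed to 2575, 2002, 2236 and 2275 TPM in replicates 1 to 4. Ctss also belongs to the macrophage list, whose sum of 1162, 551, 700 and 773 TPM had the same highest and lowest library. The part of macrophages in these values was not tested.

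Chemokine ligands were low, with none at a mean of 100 TPM and 7 of 33 at a mean of 10 TPM or more. Ccl6 was at 157, 64.9, 81.3 and 65.1 TPM, Cxcl3 at 71.0 ± 11.5 TPM and Ccl2 at 44.6 ± 4.56 TPM. The eosinophil attractant Ccl11 was at 19.2, 4.63, 6.89 and 23.7 TPM, in the library order of replicates 4, 1, 3 and 2. Ccl20, Ccl24, Ccl12, Ccl19, Cxcl13 and Cxcl15 had 0 counts. Ccl6 is also known from macrophages, whose marker genes summed to 1162, 551, 700 and 773 TPM. Both were highest in replicate 1. Ccl6 was nearly equal in replicates 2 and 4, whereas the macrophage sum was lowest in replicate 2 only. The part of macrophages in the level of Ccl6 was not tested.

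**Figure D3:**
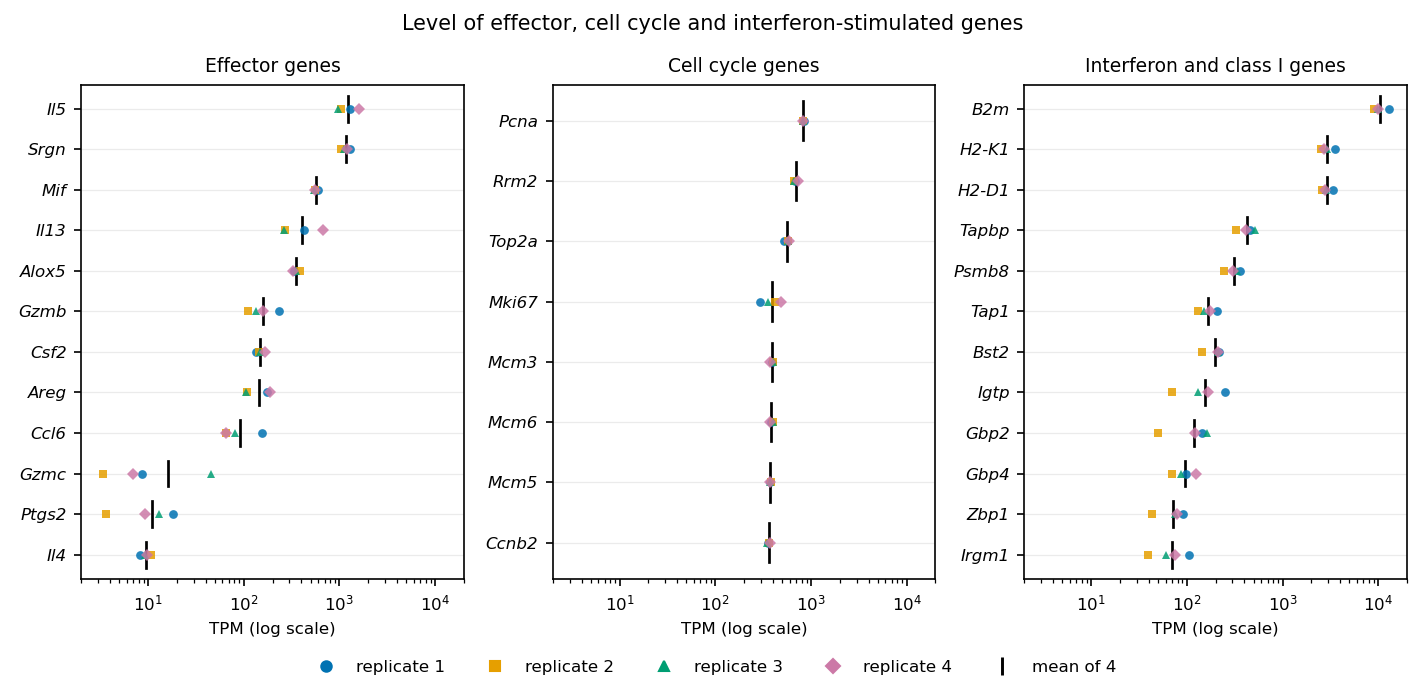
TPM (log scale) of effector genes, cell cycle genes and interferon-stimulated or class I genes, with 1 symbol for each library and a black bar at the mean. The cell cycle genes other than Mki67 nearly coincide, Il13 and Gzmc spread by library, and replicate 2 is the lowest library for every gene shown in the interferon and class I panel.

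Genes of the interferon response set the libraries apart. The summed level of 30 interferon-stimulated genes was 1348, 714, 1078 and 1180 TPM in replicates 1 to 4. Of the 25 genes at 1 TPM or more, 18 were highest in replicate 1 and 20 lowest in replicate 2. Of all 9024 genes at 10 TPM or more, 1186 were highest in replicate 1 and 1463 lowest in replicate 2. Igtp, an interferon-inducible GTPase of defence against intracellular parasites, was at 252, 70.7, 131 and 168 TPM and the related Irgm1 at 106, 39.7, 60.7 and 75.5 TPM. The guanylate-binding protein genes Gbp2 and Gbp4 were at 145, 49.6, 164 and 122 TPM and at 97.1, 70.2, 87.2 and 126 TPM. Bst2, which tethers budding virus, was at 217, 146, 213 and 212 TPM. Ddx58, which encodes the RNA sensor RIG-I, was more even, at 82.6 ± 4.82 TPM, and Mx1 was at the floor. Ifng, chosen after its values were seen, was at 2.47, 0.464, 1.15 and 1.56 TPM. The sums of the interferon-stimulated and the macrophage genes had the same order of libraries, and what each owes to the other was not tested.

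The class I pathway had the same highest and lowest library. Its 10 genes summed to 21371, 15199, 17151 and 16770 TPM, and all 10 were lowest in replicate 2, as were 1463 of all 9024 genes. B2m was at 13003, 9024, 9954 and 9914 TPM, H2-K1 at 3524, 2512, 2930 and 2741 TPM and the immunoproteasome subunit Psmb8 at 358, 243, 338 and 302 TPM. The class II list summed to 161, 95.7, 94.0 and 84.5 TPM. It was led by H2-Oa, with 22.8% of its exon bases antisense to another gene, at 45.2 ± 6.64 TPM and by the invariant chain Cd74 at 54.2, 26.2, 18.5 and 19.3 TPM, and H2-Ab1 was at 13.3, 5.94, 7.29 and 5.47 TPM. Markers of macrophages, which carry class II, were also highest in replicate 1, and their part in these values was not tested.

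Immediate early and heat shock genes, which can respond to handling, were present at 1 TPM or more in 20 of 23 cases. Hsp90aa1 was at 482 ± 9.97 TPM, with 42.8% of its stretches shared with other genes. Junb was at 188, 173, 188 and 190 TPM, Jund, of whose exon bases 52.6% lie antisense to Gm11175, at 214, 196, 202 and 134 TPM and Ier2 at 142 ± 11.9 TPM. The sum of the list was even, at 1449 ± 43.4 TPM.

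Residual transcripts of other lineages were read from 18 marker lists. Their summed levels ran from 796 TPM, both for macrophages and monocytes and for T cells, down to about 1 TPM for neutrophils and platelets. Without replicate 1 the sums were 674 TPM for macrophages and monocytes and 816 TPM for T cells. Over 50% of the sum came from 1 gene in 11 of the 18 lists, so genes that led a list or were absent are named for most lists.

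T cell genes were present although CD3+ cells were gated out. The 14 genes summed to 735, 861, 806 and 782 TPM, and 11 were at 1 TPM or more. Trbc2, a constant region of the T cell receptor β chain, was at 555, 619, 592 and 584 TPM and held 73.8% of the sum, and Trbc1 was at 118 ± 11.3 TPM. These genes share 37.7% and 34.6% of their stretches, mainly with each other. Of the CD3 chains, Cd3g was at 37.9 ± 3.97 TPM, against 5.83 ± 1.94 TPM for Cd3e and 5.35 ± 1.96 TPM for Cd3d, both highest in replicate 2. Trac, the α chain constant region, was at 9.77, 25.1, 17.7 and 17.6 TPM. Constant region genes of all T cell receptor loci held 0.278% of TPM and 70 joining genes 0.208%, while 144 variable genes held 0.0200%, with 17 of them at 1 TPM or more.

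B cell genes were nearly absent apart from Ighm at 35.0 ± 5.79 TPM and Cd79b at 26.4 ± 2.25 TPM. Ms4a1 and Pax5 had 0 counts in all 4 libraries, and Cd79a was at 0.568 ± 0.199 TPM. The other 8 of the 10 genes were below 1 TPM. Of 13 genes of ILC1s and NK cells, 6 were at 1 TPM or more and none at 10 TPM. The activating receptor Ncr1 was at 1.78, 1.76, 4.07 and 1.74 TPM and did not differ from Tbx21 beyond the spread. Klrb1c, which encodes NK1.1, was at the floor. The ILC3 list summed to 32.7, 47.2, 44.7 and 49.7 TPM, with 6 of its 8 genes at 1 TPM or more. It was led by Tnfrsf11a at 14.5 TPM and included Ccr6 at 5.54 TPM, while Il17a and Il17f were below 1 TPM.

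Myeloid transcripts were uneven. The 16 genes of macrophages and monocytes summed to 1162, 551, 700 and 773 TPM, with 10 at 1 TPM or more, 8 of these highest in replicate 1, against 1186 of all 9024 genes at 10 TPM or more. Chil3, a chitinase-like protein that alveolar macrophages make, was at 488, 193, 294 and 416 TPM and shares 13.0% of its stretches, mainly with Chil4. Lyz2, which encodes lysozyme, was at 402, 213, 211 and 175 TPM, and the scavenger receptor Marco at 28.4, 10, 15.5 and 5.41 TPM. The complement genes C1qa, C1qb and C1qc and the interstitial marker Ms4a7 were at the floor. Among 10 neutrophil genes none reached 1 TPM, and Csf3r, Ltf and Retnlg had 0 counts. Of mast cell and basophil genes, Cpa3 was at 21.1, 29.5, 29.0 and 15.6 TPM, and Cma1, Tpsb2, Mcpt1 and Ms4a2 had 0 counts. Mcpt8, a basophil protease, had 3, 3, 51 and 9 counts, so that replicate 3 set its mean of 2.32 TPM, which is 0.551 TPM without it. Epx and Prg3 of eosinophils had 0 counts, and Ear1 and Siglecf were at 1.60 and 1.41 TPM. Xcr1 and Itgax led the dendritic cell list at 20.5 and 8.95 TPM, with Zbtb46, Clec9a and Flt3 below 1 TPM.

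Genes known from structural cells were also present, and their source was not tested. Fibroblast genes summed to 306, 152, 336 and 219 TPM, and the 8 of 9 genes at 1 TPM or more were all lowest in replicate 2, against 1463 of all 9024 genes at 10 TPM or more. Col1a1 was at 143, 81.8, 159 and 95.4 TPM, Col3a1 at 42.3, 19.1, 41.3 and 33.9 TPM and Pdgfra at 10.1, 4.02, 9.0 and 7.32 TPM. The smooth muscle list summed to 235, 127, 235 and 135 TPM, of which Acta2 held 91.1%, whereas Myh11 was at 1.2 ± 0.142 TPM and Des below 1 TPM. Endothelial genes summed to 75.4, 118, 151 and 82.6 TPM, and all 9 at 1 TPM or more were highest in replicate 3, against 2002 of all 9024 genes at 10 TPM or more. Pecam1 was at 27.5, 38.4, 45.6 and 27.5 TPM and Cdh5, which encodes VE-cadherin, at 18.3, 28.8, 35.8 and 21.6 TPM. Plvap, chosen after its values were seen, was at 27.9, 57.3, 85.7 and 28.2 TPM. The sums of endothelial and fibroblast genes were both highest in replicate 3. Their library orders otherwise differed, since replicate 1 was high for fibroblast and low for endothelial genes.

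Genes of the airway and alveolar epithelium lists were low but for 1 library. Epcam, an epithelial adhesion gene outside these lists and chosen after its values were seen, was at 112, 104, 96.4 and 91.2 TPM. The airway list summed to 1.89, 144, 1.95 and 1.09 TPM. Scgb1a1, the secretoglobin of club cells, was at 0.480, 138, 0.313 and 0 TPM, which are 2, 654, 1 and 0 counts, and its mean of 34.6 TPM is 0.264 TPM without replicate 2. Scgb3a2 and Bpifa1 had 0 counts, and Cyp2f2, another club cell gene, was at the floor in all libraries. Krt8 and Krt18 were also highest in replicate 2, at 3.22 and 2.51 TPM. Of 10 alveolar genes, Hopx, with 27.2% of its exon bases antisense to Hopxos, led at 6.83 ± 1.28 TPM, and Sftpc, which marks alveolar type 2 cells, was at the floor. Of erythroid genes, Hbb-bt was at 6.52 ± 3.68 TPM and Hba-a1 at 4.69 ± 0.906 TPM, but their near-identical copies make the split uncertain. The mesothelial list held only Lrrn4 above the floor, at 9.25 ± 1.33 TPM, and the glial list was led by Mbp at 65.8 ± 2.52 TPM, which is also made by lymphocytes in its long Golli forms. No platelet gene reached 1 TPM.

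**Figure D4:**
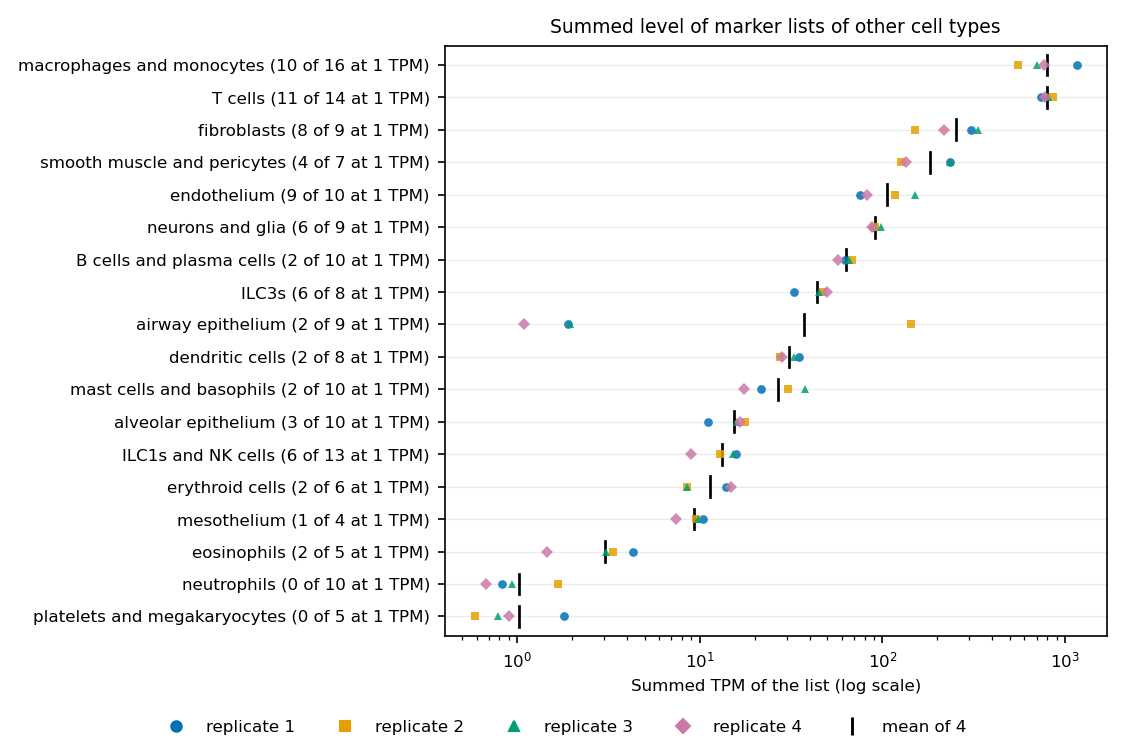
Summed TPM (log scale) of 18 marker lists of other cell types, with 1 symbol for each library, a black bar at the mean and the number of genes at 1 TPM or more. The airway list is at 144 TPM in replicate 2 and under 2 TPM elsewhere, macrophage genes are highest in replicate 1, and the T cell sums nearly coincide.

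Above 10 TPM most genes were even between libraries, and below it they were not. The median CV of the 9024 genes with a mean of 10 TPM or more was 6.97%, against 2.63% from counting alone, and 90.5% of these genes had a highest library under 1.5 times the lowest. Of the 5489 genes between 1 and 10 TPM, 37.0% stayed under 1.5 times, 2058 had a highest library over 2 times the lowest and 874 a CV over 50%. The median CV was 23.6% between 1 and 10 TPM, 7.74% between 10 and 100 TPM, 4.64% between 100 and 1000 TPM and 4.95% for the 106 genes above. At 10 TPM or more, a highest library over 2 times the lowest was found for 240 genes. The 10 genes of largest CV were Scgb1a1 (198%), Gzmc (123%), Gm17622, Ly6c1, Xist, Gm22806, Gm6020, Snord83b, Gm23935 and Neat1 (75.4%). Gm17622 had only 0 to 11 counts and Gm6020 1 to 14 counts per library, so that counting error alone is wide there. Ly6c1, an endothelial and lymphocyte surface antigen, was at 71.3, 7.11, 19.2 and 27.6 TPM and shares 19.0% of its stretches, mainly with Ly6c2. Neat1, the RNA scaffold of paraspeckles, was at 3.45, 10.5, 7.87 and 23.2 TPM. The most even genes were Nop16, Hsd17b4, Fam173a, Arih1 and Usp1, with CVs of 0.0597% to 0.434%, which are the extremes of 9024 genes.

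**Figure D5:**
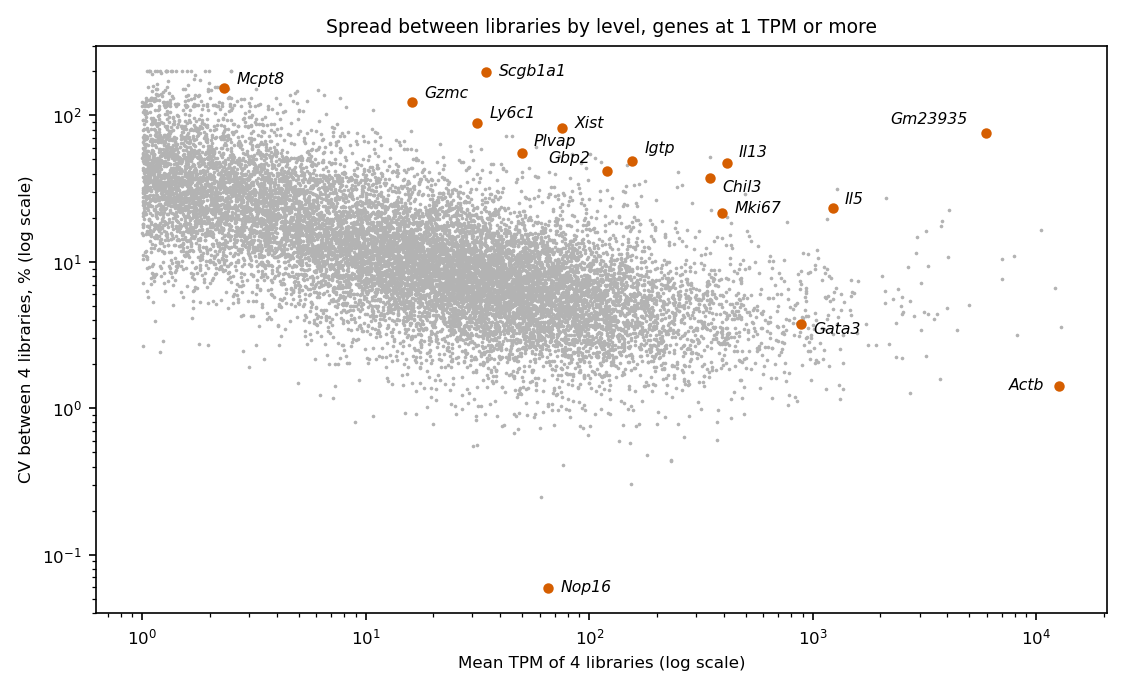
CV between the 4 libraries in percent (vertical, log scale) against mean TPM (horizontal, log scale) for genes at 1 TPM or more, with named genes in orange. The CV declines with level up to 1000 TPM, and Scgb1a1, Gzmc, Ly6c1, Xist, Il13 and Gm23935 lie above the cloud at their level, while Gata3 and Actb lie within it.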

How the data were processed

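RNA of sorted lung ILC2s was sequenced by the authors from SMART-seq v4 and Nextera XT libraries. Per the study's methods, the authors trimmed adaptors with cutadapt, used HISAT2 for alignment to GRCm38, and obtained gene counts from Subread. The submitters' processing notes list Bowtie2, Subread, DESeq2 and mm10. The authors deposited raw counts and TPM, and the deposited TPM equal the counts per length rescaled to 1000000 per library (largest difference 4.55e-11). Strandedness is not given in the sources used here.

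Genes were ranked by the mean TPM of the 4 unstimulated libraries, and 49612 symbols were matched to GENCODE M21, with 3666 unmatched. The expression threshold was 1 TPM, the floor 3 counts. The SMART-seq kit counts reads without molecular identifiers, so floors cover counting error only. Marker and function lists numbered 43 with 635 genes. The genes named were the highest 10, the highest 20 outside mitochondrial and ribosomal protein genes, up to 8 of each list with its members at the floor, and the 10 largest and 5 smallest CVs at 10 TPM or more. The libraries, lists and rules were chosen with earlier results of these data known. Genes from copies were marked by the share of 75-base stretches found in transcripts of other genes. TMM factors came from edgeR 4.0.16 in R 4.3.3 and lay between 0.976 and 1.01, and the common biological CV over 14311 genes was 12.3%. The code was tested on simulated data. With 1 group no conditions were compared, and the only test was Dixon's ratio for a library far from the other 3. Alternatives were another threshold, CPM, TMM rescaling, medians, shares of counts and leaving out each library. Comparison with stimulated cells was left out, and a few genes of the lists are not reported here.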

Additional observations from a re-analysis of the deposited data

Results flagged for a closer look

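A library far from the other 3 by Dixon's ratio was found for 13 of 261 named genes, 2 of 43 list sums and 0 of 13 library measures. Chance alone marks about 1 in 20 groups, and the share of named genes marked was 4.98%. The marks are therefore given as descriptions only. The named genes include those of largest CV, such as Scgb1a1 and Gzmc, and genes chosen after values were seen, such as Eif2s3x. For these genes the ratio rests on values already known at the choice.

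Replicate 3 was the far library, on the high side, for Gzmc (45.5 TPM), Mcpt8 (7.62 TPM), Ncr1 (4.07 TPM), Kit (140 TPM) and Tubb3 (8.06 TPM). Replicate 2 was far on the high side for Scgb1a1 (138 TPM) and the airway epithelium list (144 TPM), and on the low side for Cxcr6 (1274 TPM), Junb (173 TPM), Bst2 (146 TPM) and Tap2 (98.5 TPM). Replicate 1 was far on the high side for Lyz2 (402 TPM) and the class II antigen presentation list (161 TPM). Replicate 4 was far on the high side for Cysltr1 (489 TPM) and on the low side for the X-linked gene Eif2s3x (86.6 TPM). For Xist, where replicate 4 had 1 count, the spread of the other 3 libraries kept the ratio below the limit.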

How the results depend on the processing

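Of the highest 100 genes by mean TPM, 57 were also among the highest 100 by CPM, which is not per length. The share of mitochondrially encoded genes was 1.56% of counts, and that of ribosomal protein genes 3.90% of counts, both below their shares of TPM. The median CV became 10.3% with genes from 1 TPM on, and 5.69% to 7.19% when 1 library was left out, lowest without replicate 1. The sum over all other-lineage genes was 2480 TPM, and 1002 TPM without each list's highest gene. The number of genes at 1 TPM or more was 14432 to 14644 with 1 library left out, 13208 by CPM with TMM scaling and 21400 at 0.1 TPM. With 4 libraries, leaving out 1 moves a mean by less than 1 SD by construction, which says nothing of stability. Means moved by over 1.5 times without 1 library for 12 named genes, which include Scgb1a1 and Krt18 (replicate 2), Gzmc and Mcpt8 (replicate 3), Ly6c1 and Gzma (replicate 1) and Il22 and Neat1 (replicate 4), and for the airway list, which is 1.64 TPM without replicate 2. No paired analysis was possible because there is only 1 group. Low levels of short genes rest on few counts.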
